A study of Mus musculus with 6 samples.

Results

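The XCL1-XCR1 chemokine axis is the pair formed by the chemokine gene Xcl1 and the gene of its receptor, Xcr1. The pair was taken as every probe set annotated with exactly 1 gene symbol that is Xcl1 or Xcr1, which gave 1 probe set for each gene (10359697 for Xcl1 and 10597996 for Xcr1) and so 2 genes of 19938. The pair was chosen by its log2 values over the 3 populations of these arrays, in which the 2 genes were highest in different populations, so their levels and differences are given as a description, with no test.

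The study sorted 3 populations of conventional dendritic cells from the spleens of wild-type mice and hybridised their RNA to 6 Affymetrix arrays, 2 per population. The populations were CD24+CD172a+ cDC2, CD24-CD172a+ cDC2 (labelled by CD172a+ alone on the single arrays) and cDC1, which the labels give as CD24+ and, in the series title, as CD24+CD172a-. No treatment is named, the labels used here give neither age nor sex, and whether a population's arrays represent separate animals, or pools, is not stated. Every p-value therefore measures the spread between arrays, which may be technical. Values are log2 of the deposited intensities. A gene is called higher or lower where its limma p-value, adjusted by the Benjamini-Hochberg method over all 19938 genes of a comparison, is below 0.05.

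XCL1 (lymphotactin) is the C-class chemokine of the mouse and is known chiefly as a product of natural killer (NK) cells and activated CD8 T cells, which release it together with CCL3, CCL4, CCL5 and interferon gamma. XCR1 is its G protein-coupled receptor and, in the spleen, is the surface marker by which cross-presenting cDC1 are often told from other dendritic cells. Cells carrying XCR1 migrate towards XCL1, which brings cDC1 close to the lymphocytes that make it.

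The 250 bases before the start of each gene are printed to show the letters searched for motifs of the transcription factors whose levels are given further on. Both were matched by symbol in the RefSeq promoter table of build GRCm38.p6, and both lie on the minus strand, at chr1:164935523-164935772 for Xcl1 and chr9:123862030-123862279 for Xcr1. They are written 5′ to 3′ in the direction of transcription, with motif matches in capitals.
Xcl1: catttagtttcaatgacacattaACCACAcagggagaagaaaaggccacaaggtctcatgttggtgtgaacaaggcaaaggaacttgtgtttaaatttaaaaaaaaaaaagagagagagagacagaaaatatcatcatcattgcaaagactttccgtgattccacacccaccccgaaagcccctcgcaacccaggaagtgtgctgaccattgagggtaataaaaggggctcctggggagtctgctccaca
Xcr1: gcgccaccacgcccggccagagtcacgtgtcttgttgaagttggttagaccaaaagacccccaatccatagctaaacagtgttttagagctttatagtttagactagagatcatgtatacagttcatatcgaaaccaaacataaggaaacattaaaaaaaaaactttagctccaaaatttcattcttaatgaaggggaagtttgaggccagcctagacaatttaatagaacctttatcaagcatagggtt
Of the bases, 44% were G or C in the Xcl1 window and 38.8% in the Xcr1 window, against a median of 52.4% over 32841 promoter windows of the same length. CG pairs numbered 3 in the Xcl1 window and 5 in the Xcr1 window, against a median of 6. The RUNX motif TGTGGT was searched on both strands and occurred once, in the Xcl1 window, where it reads ACCACA on the printed strand with its first base 227 bases before the start. Of all windows, 14% held that motif. The other motifs searched on both strands were absent from both windows: GGAA and GAAA with 2 bases between them (an IRF-ETS composite, in 2.3% of all windows), GAAA repeated after 2 bases (paired IRF, 2.98%), TGANTCA (AP-1, 6.75%), CACCTG (the ZEB E-box, 17.2%), AGGTGTGA (T-box, 1.12%) and TTACGTAA (NFIL3, 0.113%). A match is a description of these letters, and binding was not measured.

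Xcl1 was highest in CD24+CD172a+ cDC2, intermediate in CD24-CD172a+ cDC2 and lowest in cDC1. Its log2 intensity was 8.93 and 8.90 on the CD24+CD172a+ cDC2 arrays, 7.41 and 7.47 on the CD24-CD172a+ cDC2 arrays, and 6.10 and 6.41 on the cDC1 arrays. On the linear scale the values were 487 and 477 on the CD24+CD172a+ arrays, 170 and 178 on the CD24-CD172a+ arrays, and 68.7 and 85.3 on the cDC1 arrays. The groups did not overlap, and the closest arrays of neighbouring groups lay 1.42 apart between the cDC2 populations and 1.0 apart between CD24-CD172a+ cDC2 and cDC1. The means were 8.91 ± 0.02 in CD24+CD172a+ cDC2, 7.44 ± 0.04 in CD24-CD172a+ cDC2 and 6.26 ± 0.22 in cDC1 (SD, n = 2 each). CD24+CD172a+ cDC2 thus read 1.47 above CD24-CD172a+ cDC2 on the log2 scale, or 2.77-fold, and 2.65 above cDC1, or 6.3-fold. CD24-CD172a+ cDC2 read 1.18 above cDC1, or 2.27-fold. The pooled SD of the groups compared was 0.03, 0.16 and 0.16 in those 3 comparisons. In sorted populations measured as a whole, fewer cells carrying a transcript and less of it per cell cannot be told apart.

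Xcr1 ran the other way, and was highest in cDC1. It read 4.79 and 5.45 (log2 intensity) on the CD24+CD172a+ cDC2 arrays, 5.65 and 6.07 on the CD24-CD172a+ cDC2 arrays, and 10.71 and 10.71 on the cDC1 arrays. Linear intensities were 27.6 and 43.8 on the CD24+CD172a+ arrays, 50.3 and 67.2 on the CD24-CD172a+ arrays, and 1680 and 1670 on the cDC1 arrays. The cDC1 arrays stood at least 4.64 above any cDC2 array. The mean of CD24+CD172a+ cDC2 (5.12 ± 0.47) lay 5.59 below that of cDC1 (10.71 ± 0.00), or 48.2-fold, and the mean of CD24-CD172a+ cDC2 (5.86 ± 0.30) lay 4.85 below it, or 28.8-fold (SD, n = 2 each). Detection calls and scanner background were not used here. The median gene read 5.02 on these arrays, near the cDC2 levels of Xcr1, and whether those lie above background was not tested.

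Between the cDC2 populations the levels of Xcr1 did not overlap, and the step was smaller than those from cDC1. CD24+CD172a+ cDC2 read 0.74 below CD24-CD172a+ cDC2 in the mean, the closest arrays of the groups were 0.20 apart, and the pooled SD was 0.39. Without replicate 1 of CD24+CD172a+ cDC2 the difference was -0.41, and without its replicate 2 it was -1.07.

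**Figure D1:**
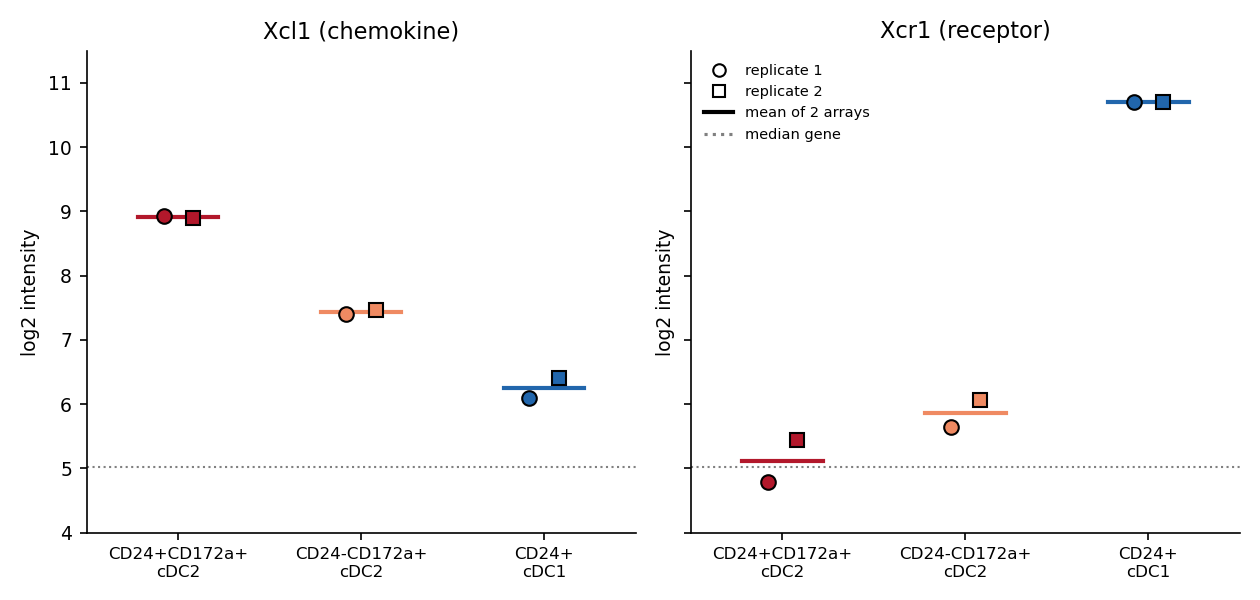
Log2 intensity of Xcl1 (left) and Xcr1 (right) on each of the 6 arrays, with circles for replicate 1, squares for replicate 2, a bar for the mean of 2 arrays and a dotted line at the median gene (5.02). Xcl1 steps down over CD24+CD172a+ cDC2, CD24-CD172a+ cDC2 and cDC1, whereas Xcr1 stands at 10.71 in cDC1 and between 4.79 and 6.07 on the cDC2 arrays.

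Arrays of groups of 2 fail to overlap often, so the patterns were set beside those of all genes. Xcl1 was above every CD24-CD172a+ cDC2 array on both CD24+CD172a+ cDC2 arrays, as were 21.4% of all genes. It was likewise above cDC1 in CD24+CD172a+ cDC2, with 23.5% of all genes, and in CD24-CD172a+ cDC2, with 25% of all genes. Xcr1 was below in those 3 comparisons, with 22.8%, 28.6% and 27.4% of all genes. These shares describe a contrast that chose the pair. Steps of this size were shared by few genes, which again describes values that chose the pair. Of the 1767 genes (8.86%) with both CD24+CD172a+ cDC2 arrays above the other 4, Xcl1 was 1 of 5 whose mean lay at least 1.47 above the next group. The others were Dab2, an endocytic adaptor (1.74), the C-type lectin Cd209d (1.56), Bex1 (1.55, with 6.12 and 4.23 on its CD24+CD172a+ cDC2 arrays) and S100a9, a calcium-binding protein of myeloid cells (1.52). Of the 3485 genes (17.5%) with both cDC1 arrays above the other 4, Xcr1 was 1 of 5 with a gap of at least 4.85. The rest were the orphan receptor gene Gpr141b (6.70), the interferon-inducible Ifi205 (6.43), the collagen-modifying enzyme gene P3h2 (5.68) and the UDP-sugar receptor gene P2ry14 (5.55).

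The sort markers followed the labels. Cd24a read 10.94 and 10.82 on the CD24+CD172a+ arrays, 8.68 and 8.97 on the CD24-CD172a+ arrays, and 11.83 and 11.66 on the cDC1 arrays. It was called higher in CD24+CD172a+ than in CD24-CD172a+ cDC2, by 2.05 ± 0.15 (SE, limma adjusted p = 0.000454). Sirpa, which encodes CD172a, read 10.01 and 10.27 on the CD24+CD172a+ arrays, 10.18 and 10.20 on the CD24-CD172a+ arrays, and 4.97 and 5.39 on the cDC1 arrays. All 15 measured cDC1 markers were called lower than in cDC1 in either cDC2 population. Of 14 cDC2 markers, 12 were called higher in CD24+CD172a+ cDC2 than in cDC1 and 13 in CD24-CD172a+ cDC2 than in cDC1. Tbc1d8 was lower in both. Among all genes, 13.6% were called in CD24+CD172a+ cDC2 over cDC1 and 15.7% in CD24-CD172a+ cDC2 over cDC1. Between the cDC2 populations the cDC1 markers had no common direction, with 1 called higher, 3 lower and 11 not called (median -0.06). Those calls were 26.7% of the list, beside 1.46% of all genes. The marker called higher was Cd8a, a coreceptor gene that splenic cDC1 express. It read 7.31 and 7.84 on the CD24+CD172a+ arrays, 5.31 and 5.63 on the CD24-CD172a+ arrays, and 10.92 and 11.07 on the cDC1 arrays, and was called higher in CD24+CD172a+ than in CD24-CD172a+ cDC2 (2.11 ± 0.19, SE, limma adjusted p = 0.000925). The cDC1 markers Cd36, Cadm1 and Ly75 were called lower in that comparison, where the calls of Cadm1 and Ly75 were lost in each of the 6 fits without 1 array and that of Cd36 without replicate 1 of CD24+CD172a+ cDC2.

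The markers of NK and T cells, the lymphocytes known to make XCL1, held no call between the cDC2 populations, where Xcl1 differed by 1.47. Of 13 NK cell markers, 0 were called there by limma and 1 had an unadjusted p below 0.05. Of 13 T cell markers, likewise 0 were called and 1 had an unadjusted p below 0.05. Among all genes, 1.46% were called in that comparison. The summed linear intensity of the NK markers ran from 294 to 325 in CD24+CD172a+ cDC2, from 304 to 311 in CD24-CD172a+ cDC2 and from 242 to 261 in cDC1. That of the T cell markers ran from 448 to 457 in CD24+CD172a+ cDC2, from 424 to 478 in CD24-CD172a+ cDC2 and from 469 to 471 in cDC1. Of the NK markers, 7 lay under the 25th percentile of genes (log2 3.93) in CD24+CD172a+ cDC2, 6 in CD24-CD172a+ cDC2 and 6 in cDC1. Ncr1, the NK receptor NKp46, averaged 3.52 in CD24+CD172a+ cDC2, 3.75 in CD24-CD172a+ cDC2 and 3.90 in cDC1. Cd3e, a chain of the T cell receptor complex, averaged 5.30 in CD24+CD172a+ cDC2, 5.40 in CD24-CD172a+ cDC2 and 5.44 in cDC1. Against cDC1, Tbx21 was called higher in both cDC2 populations. Nkg7 and the T cell marker Cd3d were called higher only in CD24-CD172a+ cDC2 over cDC1. Those calls were 7.69% of the NK list and 0% of the T cell list in CD24+CD172a+ cDC2, beside 13.6% of all genes. In CD24-CD172a+ cDC2 they were 15.4% of the NK list and 7.69% of the T cell list, beside 15.7% of all genes. The Nkg7 call was lost in each of the 6 fits without 1 array, and that of Cd3d without any 1 array of CD24-CD172a+ cDC2 or cDC1. Whether those comparisons differ was not tested.

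Some markers of other cells were called between the cDC2 populations. Of all genes, 0.808% were called higher and 0.652% lower in CD24+CD172a+ than in CD24-CD172a+ cDC2. Of 14 plasmacytoid dendritic cell markers, 5 were called higher in CD24+CD172a+ than in CD24-CD172a+ cDC2 (Cd209d, Siglech, Tcf4, Atp1b1 and Spib). In the lower direction limma called 0, and 2 had an unadjusted p below 0.05. Their summed intensity ran from 1260 to 1300 in CD24+CD172a+ cDC2, from 1080 to 1100 in CD24-CD172a+ cDC2 and from 864 to 905 in cDC1. These sums include Lair1, an inhibitory receptor gene with means of 8.04 in CD24+CD172a+ cDC2, 8.50 in CD24-CD172a+ cDC2 and 5.79 in cDC1. Against cDC1, 6 plasmacytoid markers were called higher and 2 lower in CD24+CD172a+ cDC2 (57.1%, beside 13.6% of all genes). In CD24-CD172a+ cDC2, 4 were called higher and 3 lower than in cDC1 (50%, beside 15.7% of all genes). Ccr9, called lower in both, averaged 5.29 in CD24+CD172a+ cDC2, 4.83 in CD24-CD172a+ cDC2 and 7.07 in cDC1. The list's median level was 5.70 in CD24+CD172a+ cDC2, 4.96 in CD24-CD172a+ cDC2 and 5.18 in cDC1. Siglech, their defining surface lectin, read 5.73 and 5.99 on the CD24+CD172a+ arrays, 4.83 and 4.74 on the CD24-CD172a+ arrays, and 4.71 and 4.70 on the cDC1 arrays. Of 13 neutrophil markers, S100a8 and S100a9 were called higher in CD24+CD172a+ than in CD24-CD172a+ cDC2, and their list's intensities summed to between 378 and 410 on the CD24+CD172a+ arrays, 290 and 307 on the CD24-CD172a+ arrays, and 254 and 266 on the cDC1 arrays. In the lower direction 0 neutrophil markers were called by limma, and 2 had an unadjusted p below 0.05 (Csf3r at -0.46 and Mpo at -0.56). The list's median difference was 0.03. The defining neutrophil marker Ly6g averaged 3.07 in CD24+CD172a+ cDC2, 3.01 in CD24-CD172a+ cDC2 and 2.64 in cDC1. Of 14 monocyte and macrophage markers, 7 were called lower in CD24+CD172a+ than in CD24-CD172a+ cDC2, and the list's intensities summed to between 4180 and 4710 on the CD24+CD172a+ arrays, 6500 and 6700 on the CD24-CD172a+ arrays, and 5970 and 6210 on the cDC1 arrays. Of 12 B cell markers, 1 was called lower there (Bank1). Without replicate 1 of CD24+CD172a+ cDC2, the calls of Cd209d, Tcf4, Atp1b1, Spib, S100a8, S100a9 and Bank1 were lost, and without its replicate 2 those of Siglech, Tcf4, Atp1b1, Spib, S100a8, S100a9 and Bank1. Without replicate 1 of CD24-CD172a+ cDC2 the calls of Tcf4, Atp1b1 and Spib were lost, and without its replicate 2 those of Cd209d, Spib and Bank1. All 7 monocyte and macrophage calls (Lyz2, Adgre1, Spic, C1qa, C1qb, C1qc and Treml4) were lost without replicate 1 of CD24+CD172a+ cDC2 and without replicate 2 of CD24-CD172a+ cDC2. The part of these cells, or of NK and T cells, in the levels of Xcl1 was not tested.

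The chemokines that lymphocytes release together with XCL1 were not ordered like Xcl1 here. Ccl3, a ligand of CCR1, read 11.66 and 11.91 on the CD24+CD172a+ arrays, 12.74 and 12.85 on the CD24-CD172a+ arrays, and 11.26 and 11.03 on the cDC1 arrays. It was called lower in CD24+CD172a+ than in CD24-CD172a+ cDC2, by -1.0 ± 0.15 (SE, limma adjusted p = 0.0102), while Xcl1 was 1.47 higher. Ccl4, a macrophage inflammatory protein gene, read 9.94 and 10.36 on the CD24+CD172a+ arrays, 11.66 and 11.85 on the CD24-CD172a+ arrays, and 10.79 and 10.68 on the cDC1 arrays, which put CD24+CD172a+ cDC2 lowest of the 3 populations. Its difference between the cDC2 populations was -1.60 ± 0.16 (SE, limma adjusted p = 0.00232). Ccl5, a ligand of CCR1 and CCR3, read 11.68 and 11.75 on the CD24+CD172a+ arrays, 12.39 and 12.61 on the CD24-CD172a+ arrays, and 10.22 and 10.86 on the cDC1 arrays. Its difference between the cDC2 populations, -0.78 ± 0.19 (SE), did not pass the test (limma adjusted p = 0.0894). It passed with only the 2 groups compared.

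Against cDC1 the same chemokines divided. Ccl3 and Ccl5 were called higher in CD24+CD172a+ cDC2, by 0.64 ± 0.15 (SE, limma adjusted p = 0.0138) and 1.18 ± 0.19 (adjusted p = 0.00186), whereas Ccl4 was called lower, by -0.59 ± 0.16 (adjusted p = 0.034). CD24-CD172a+ cDC2 were called higher than cDC1 for all 3 of these chemokines, by 1.64 ± 0.15 for Ccl3, 1.01 ± 0.16 for Ccl4 and 1.96 ± 0.19 for Ccl5 (SE). Ifng, the interferon gamma gene, read between 3.15 and 3.69 on all 6 arrays and was called in none of the comparisons. Leaving out 1 array ended the call of Ccl3 between the cDC2 populations in 3 of 6 cases (either array of CD24+CD172a+ cDC2, or replicate 2 of CD24-CD172a+ cDC2), with adjusted p up to 0.129, whereas that of Ccl4 held in all 6, with adjusted p up to 0.0391. In CD24+CD172a+ cDC2 over cDC1, the Ccl3 call was lost without their replicate 2 or replicate 2 of cDC1, and the Ccl4 call without their replicate 1 or either cDC1 array. The monocyte and macrophage markers that were lower in CD24+CD172a+ than in CD24-CD172a+ cDC2 moved in the same direction as Ccl3 and Ccl4, and their part was not tested.

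**Figure D2:**
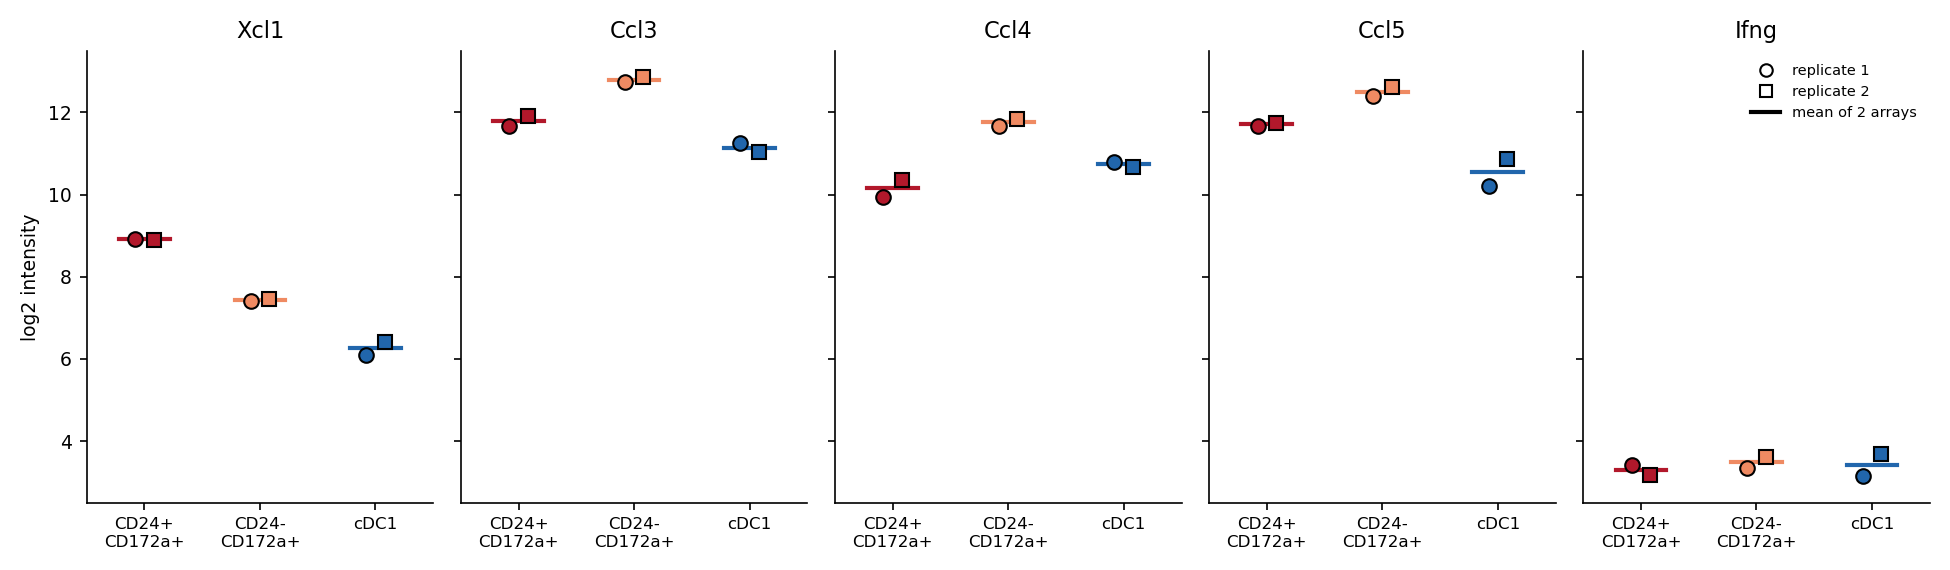
Log2 intensity of Xcl1, of the chemokine genes Ccl3, Ccl4 and Ccl5 and of Ifng on each array (circles for replicate 1, squares for replicate 2, bars for the mean of 2 arrays). Ccl3, Ccl4 and Ccl5 read highest in CD24-CD172a+ cDC2, Xcl1 reads highest in CD24+CD172a+ cDC2, and Ifng lies between 3.15 and 3.69 throughout.

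Over the chemokine ligand family without Xcl1, 34 of 35 listed genes were measured. Between the cDC2 populations 0 ligands were called higher in CD24+CD172a+ cDC2 and 4 were called lower, or 11.8% of the list. Of all genes, 0.808% were called higher and 0.652% lower in that comparison, 1.46% in all. That balance depended on the scaling, with 161 genes higher and 130 lower here, against 120 higher and 158 lower after cyclic loess. None of the ligands had an unadjusted p below 0.05 in the higher direction. The median difference of the list was -0.10, against -0.01 over all genes. Besides Ccl3 and Ccl4, those called lower were the CCR2 ligands Ccl2 and Ccl7. Ccl2 read 6.43 and 6.39 on the CD24+CD172a+ arrays, 7.67 and 7.97 on the CD24-CD172a+ arrays, and 9.31 and 9.03 on the cDC1 arrays, so that its order was the reverse of that of Xcl1. Ccl7 had the same reversed order, with 5.32 and 5.26 on the CD24+CD172a+ arrays, 6.58 and 6.61 on the CD24-CD172a+ arrays, and 7.75 and 7.72 on the cDC1 arrays. In the comparison of the cDC2 populations, Ccl2 differed by -1.41 ± 0.15 (SE, limma adjusted p = 0.00313) and Ccl7 by -1.31 ± 0.12 (adjusted p = 0.00155). Without replicate 1 of CD24+CD172a+ cDC2, the adjusted p of Ccl2 was 0.0513 and 2 ligands stayed below the threshold.

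Against cDC1, 3 ligands were called higher and 8 lower in CD24+CD172a+ cDC2, or 32.4% of the list, beside 13.6% of all genes (7.11% higher and 6.52% lower). In CD24-CD172a+ cDC2, 4 were called higher and 6 lower than in cDC1, or 29.4%, beside 15.7% of all genes (6.83% higher and 8.91% lower). The list's median differences were -0.08 for CD24+CD172a+ cDC2 over cDC1 and -0.07 for CD24-CD172a+ cDC2 over cDC1, against -0.03 and 0.00 over all genes. Both comparisons use the same cDC1 arrays. Ccl9, a ligand of CCR1, read 7.90 and 7.65 on the CD24+CD172a+ arrays, 8.15 and 7.83 on the CD24-CD172a+ arrays, and 4.78 and 4.44 on the cDC1 arrays. Its difference from cDC1, 3.16 ± 0.17 in CD24+CD172a+ cDC2 (SE, limma adjusted p = 5.75e-07) and 3.38 ± 0.17 in CD24-CD172a+ cDC2 (adjusted p = 3.26e-07), was the highest of the ligands tested. The gene with the largest negative difference was Cxcl9, which encodes a ligand of CXCR3 and read 9.10 and 9.29 on the CD24+CD172a+ arrays, 9.38 and 9.49 on the CD24-CD172a+ arrays, and 12.23 and 12.33 on the cDC1 arrays. It differed from cDC1 by -3.08 ± 0.13 in CD24+CD172a+ and by -2.84 ± 0.13 in CD24-CD172a+ cDC2 (SE). Cxcl2, a neutrophil attractant, differed by -2.56 ± 0.15 in CD24+CD172a+ and by -2.12 ± 0.15 in CD24-CD172a+ cDC2. Ccl22, a ligand of CCR4, differed from cDC1 by -2.10 ± 0.17 in CD24+CD172a+ and by -2.22 ± 0.17 in CD24-CD172a+ cDC2.

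In size, the untested difference of Xcr1 from cDC1 exceeded that of each of the 22 other chemokine receptors measured. The pair was chosen by these values, so that rank is only a description. Against cDC1, 4 of the 22 were called higher and 2 lower in CD24+CD172a+ cDC2 (27.3%, median 0.11), and 6 were called higher and 2 lower in CD24-CD172a+ cDC2 (36.4%, median 0.11). Of all genes, 13.6% and 15.7% were called in those comparisons, with medians of -0.03 and 0.00. The receptors lower in both cDC2 populations, as Xcr1 was, were Cxcr3 and Ccr9. Cxcr3, the receptor of CXCL9 and CXCL10, read 4.67 and 5.30 on the CD24+CD172a+ arrays, 5.05 and 5.42 on the CD24-CD172a+ arrays, and 6.99 and 7.23 on the cDC1 arrays. Its difference from cDC1 was -2.12 ± 0.21 in CD24+CD172a+ cDC2 (SE, limma adjusted p = 4.78e-05) and -1.87 ± 0.21 in CD24-CD172a+ cDC2 (adjusted p = 0.000125). Ccr9, the receptor of the gut chemokine CCL25, read 5.48 and 5.10 on the CD24+CD172a+ arrays, 4.93 and 4.73 on the CD24-CD172a+ arrays, and 7.07 and 7.08 on the cDC1 arrays. It differed from cDC1 by -1.79 ± 0.16 in CD24+CD172a+ and by -2.24 ± 0.16 in CD24-CD172a+ cDC2.

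The receptors called higher than in cDC1 in both cDC2 populations were Ccr6, Ackr1 and Cx3cr1. Ccr6, the receptor of CCL20, read 5.85 and 5.45 on the CD24+CD172a+ arrays, 5.46 and 5.43 on the CD24-CD172a+ arrays, and 4.02 and 4.21 on the cDC1 arrays, with a difference from cDC1 of 1.54 ± 0.16 in CD24+CD172a+ and 1.33 ± 0.16 in CD24-CD172a+ cDC2 (SE). Ackr1, an atypical receptor that binds chemokines without G protein signalling, was higher by 0.95 ± 0.20 in CD24+CD172a+ and 0.93 ± 0.20 in CD24-CD172a+ cDC2. The fractalkine receptor gene Cx3cr1 was higher by 0.86 ± 0.14 in CD24+CD172a+ and 0.62 ± 0.14 in CD24-CD172a+ cDC2. Ccr2, the monocyte-recruiting receptor, was called in CD24+CD172a+ cDC2 (0.76 ± 0.18, limma adjusted p = 0.0155). In CD24-CD172a+ cDC2 it missed the threshold (0.54, adjusted p = 0.0683) but passed after cyclic loess, without genes under the median and without replicate 2 of that group. There the calls also included Ccrl2 (1.72 ± 0.27), Ccr7, which guides dendritic cells to lymph nodes (0.78 ± 0.15), and Ccr1 (0.69 ± 0.13). With the cDC2 populations compared, 1.46% of all genes were called. Of the receptors 1 was called, Ccrl2, a chemerin-binding receptor that does not itself drive migration, at -1.27 ± 0.27 (SE, limma adjusted p = 0.049). It was 4.55% of the list, and that call was lost with only the 2 groups compared, with an intensity trend and robust variance, and in every fit without 1 array other than replicate 1 of CD24-CD172a+ cDC2. Against cDC1, the Ccr2 call was lost without replicate 1 of CD24+CD172a+ cDC2 or either cDC1 array. That of Ackr1 was lost in CD24+CD172a+ cDC2 without their replicate 1 or replicate 2 of cDC1. In CD24-CD172a+ cDC2, Ackr1 and Cx3cr1 were lost without their replicate 1 or replicate 2 of cDC1, and Ccr7 without replicate 1 of cDC1.

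**Figure D3:**
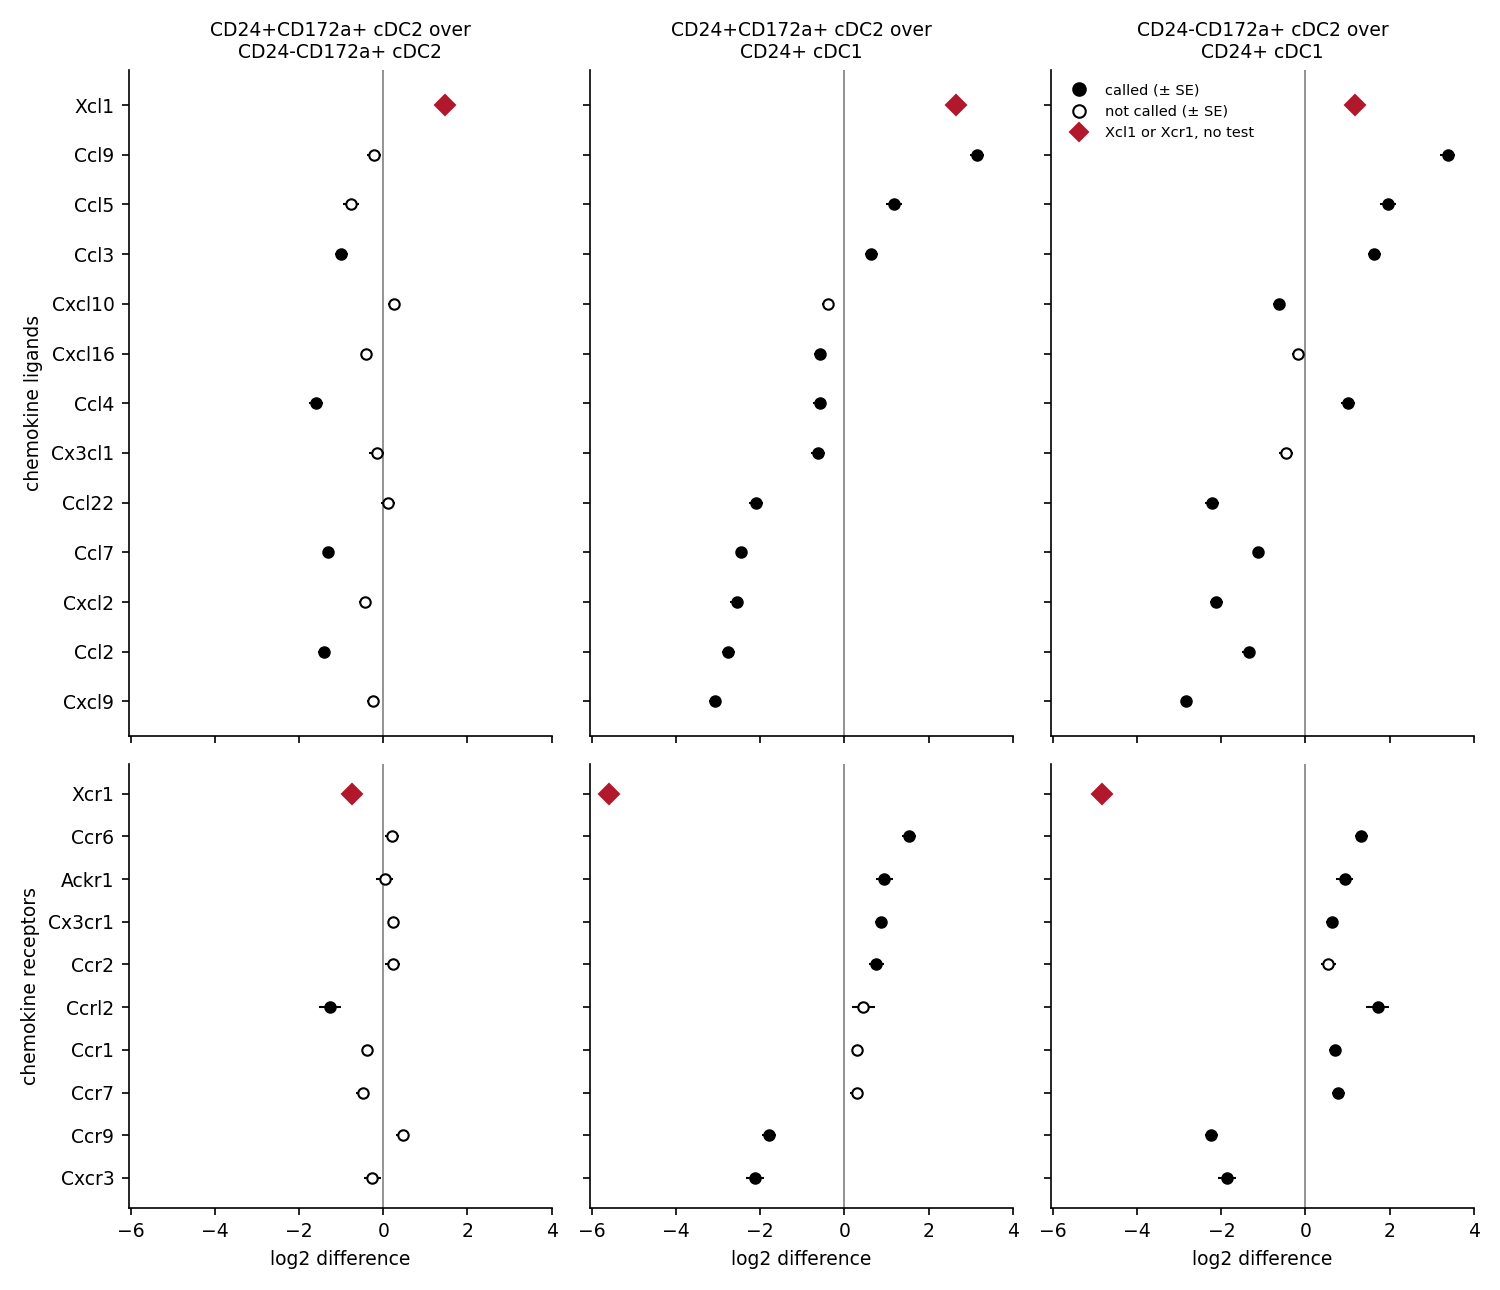
Log2 difference of the ligands (top) and receptors (bottom) called in at least 1 comparison, with SE bars. The columns show CD24+CD172a+ over CD24-CD172a+ cDC2, CD24+CD172a+ cDC2 over cDC1 and CD24-CD172a+ cDC2 over cDC1. Filled points were called, open points were not, and red diamonds are Xcl1 and Xcr1, which were not tested; Xcr1 lies at -5.59 and -4.85 against cDC1.

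XCR1 signals through Gi proteins, and the genes of the shared chemokine receptor machinery were measured for 38 of 40 listed. In CD24+CD172a+ over CD24-CD172a+ cDC2, 1 was called (2.63%, beside 1.46% of all genes), the receptor kinase gene Grk6, at 0.65 ± 0.13 (SE, limma adjusted p = 0.0382), and the call was lost in each of the 6 fits without 1 array. Against cDC1, 6 were called higher and 7 lower in CD24+CD172a+ cDC2 (34.2%, beside 13.6% of all genes, median 0.04), and 8 higher and 9 lower in CD24-CD172a+ cDC2 (44.7%, beside 15.7%, median -0.07). Gnai2, the Gi alpha subunit of leukocytes, averaged 10.92 in CD24+CD172a+ cDC2, 10.80 in CD24-CD172a+ cDC2 and 10.89 in cDC1, and no comparison called it. Among the genes lower in CD24+CD172a+ cDC2 than in cDC1 were the G protein gamma subunit gene Gng12 (-1.78 ± 0.17), the Rac exchange factor gene Tiam1 (-1.77 ± 0.15), the receptor kinase gene Grk5 (-1.26 ± 0.15) and the beta-arrestin gene Arrb1 (-0.85 ± 0.19). In CD24-CD172a+ cDC2 they differed from cDC1 by -1.85 ± 0.17 for Gng12, -2.11 ± 0.15 for Tiam1, -0.73 ± 0.15 for Grk5 and -1.01 ± 0.19 for Arrb1. Gng2, also a gamma subunit gene, was called lower by -0.95 ± 0.13 in CD24+CD172a+ and -0.78 ± 0.13 in CD24-CD172a+ cDC2. Higher in CD24+CD172a+ cDC2 than in cDC1 were the PI3K gamma regulatory subunit gene Pik3r5 (1.10 ± 0.14), the Rac activator Elmo1 (0.88 ± 0.12) and the receptor kinase gene Grk3 (0.84 ± 0.13). In CD24-CD172a+ cDC2 their differences from cDC1 were 1.23 ± 0.14 for Pik3r5, 0.95 ± 0.12 for Elmo1 and 0.96 ± 0.13 for Grk3. The call of Arrb1 in CD24+CD172a+ cDC2 was lost without either array of that group and without replicate 1 of cDC1.

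The list of 11 regulators of transcription held factors known for cDC1 development or for lymphocyte effector genes, and Aire. Of the 11, 3 were called lower and 3 higher in CD24+CD172a+ cDC2 than in cDC1. In CD24-CD172a+ cDC2, 2 were called lower and 2 higher than in cDC1. These calls were 54.5% of the list beside 13.6% of all genes in the first comparison, and 36.4% beside 15.7% in the second. Irf8, which is required for cDC1, read 5.72 and 6.17 on the CD24+CD172a+ arrays, 6.31 and 6.52 on the CD24-CD172a+ arrays, and 8.49 and 8.99 on the cDC1 arrays. It differed from cDC1 by -2.79 ± 0.20 in CD24+CD172a+ cDC2 (SE, limma adjusted p = 4.2e-06) and by -2.33 ± 0.20 in CD24-CD172a+ cDC2 (adjusted p = 1.65e-05). Id2, which represses E proteins in cDC1, differed by -1.31 ± 0.14 in CD24+CD172a+ and -0.64 ± 0.14 in CD24-CD172a+ cDC2. Batf3, the partner of IRF8 in cDC1, differed by -0.52 ± 0.15 in CD24+CD172a+ cDC2 (adjusted p = 0.0397) and by -0.27 in CD24-CD172a+ cDC2 (adjusted p = 0.283). The Batf3 call was lost without either CD24+CD172a+ array or replicate 1 of cDC1, and that of Id2 in CD24-CD172a+ cDC2 without their replicate 1 or replicate 2 of cDC1.

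Called higher in CD24+CD172a+ cDC2 than in cDC1 were Zeb2, Tbx21 and Runx3. Zeb2, a repressor known to oppose the cDC1 fate, read 7.97 and 7.96 on the CD24+CD172a+ arrays, 7.97 and 8.0 on the CD24-CD172a+ arrays, and 3.84 and 4.16 on the cDC1 arrays, a difference of 3.97 ± 0.14 in CD24+CD172a+ and 3.99 ± 0.14 in CD24-CD172a+ cDC2 (SE). Tbx21, which encodes the lymphocyte factor T-bet, read 6.71 and 6.35 on the CD24+CD172a+ arrays, 6.34 and 6.44 on the CD24-CD172a+ arrays, and 5.47 and 5.40 on the cDC1 arrays, a difference of 1.09 ± 0.15 in CD24+CD172a+ and 0.95 ± 0.15 in CD24-CD172a+ cDC2. Runx3, a factor of cytotoxic lymphocytes, differed from cDC1 by 0.57 ± 0.14 in CD24+CD172a+ cDC2 (adjusted p = 0.0239) and by 0.31 in CD24-CD172a+ cDC2 (adjusted p = 0.203), and its call was lost without replicate 2 of CD24+CD172a+ cDC2 or either cDC1 array. Between the cDC2 populations, where Xcl1 differed by 1.47, the call was Id2 alone, at -0.66 ± 0.14 (limma adjusted p = 0.0462). That call was 9.09% of the list, beside 1.46% of all genes, and was lost in each of the 6 fits without 1 array. Nfil3, Bcl6, Eomes, Runx1 and Aire were called in none of the comparisons, although Bcl6 passed in CD24+CD172a+ cDC2 over cDC1 without genes under the median and with an intensity trend and robust variance.

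The gene Xcl1 spans chr1:164931644-164935522 and Xcr1 spans chr9:123852315-123862029 (GRCm38.p6, minus strand). Of the 20 protein-coding genes nearest to Xcl1, 10 on each side, 17 were measured. Between the cDC2 populations, where 1.46% of all genes were called, 1 of the 17 was called. It was Atp1b1, a sodium pump subunit gene 473 kb away, which read 5.55 and 5.65 on the CD24+CD172a+ arrays, 4.66 and 4.78 on the CD24-CD172a+ arrays, and 4.27 and 4.29 on the cDC1 arrays (0.88 ± 0.13, SE, limma adjusted p = 0.01). Its order was that of Xcl1, and its call between the cDC2 populations was lost without either CD24+CD172a+ array or replicate 1 of CD24-CD172a+ cDC2. It also stands in the plasmacytoid list. On its side of Xcl1, Atp1b1 was the second nearest measured gene, between Dpt (107 kb) and Nme7 (494 kb). The nearest on the other side were Tbx19 (202 kb), Sft2d2 (239 kb) and Tiprl (277 kb). Apart from Atp1b1, these genes were not called there. Ccdc181, also a neighbour, missed the threshold there (0.64, adjusted p = 0.0519) and passed without genes under the median, after median centring, with mean probe sets, and with an intensity trend and robust variance. Against cDC1, 3 of the 17 were called in either cDC2 population, beside 13.6% and 15.7% of all genes. Atp1b1 and Blzf1 were called higher and Creg1 lower in CD24+CD172a+ cDC2, and Atp1b1 was called higher and Ccdc181 and Creg1 lower in CD24-CD172a+ cDC2. The Atp1b1 call in CD24-CD172a+ cDC2 was lost in each of the 6 fits without 1 array, and that of Blzf1 without any 1 array of CD24+CD172a+ cDC2 or cDC1.

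Xcr1 lies beside other chemokine receptor genes, and of its 20 neighbours 14 were measured. In CD24+CD172a+ over CD24-CD172a+ cDC2, limma called 0 of them, beside 1.46% of all genes, and 4 had an unadjusted p below 0.05. Against cDC1, 3 of the 14 were called in CD24+CD172a+ and 4 in CD24-CD172a+ cDC2, beside 13.6% and 15.7% of all genes. The CD24+CD172a+ cDC2 calls were Ccr2 (240 kb, 0.76 higher) and, in the lower direction, Ccr9 (68.9 kb, -1.79) and the lipid phosphatase gene Sacm1l (260 kb, -0.58). In CD24-CD172a+ cDC2 they were Ccr1 (100 kb) and Tmem158 (592 kb) in the higher direction, and Ccr9 and Sacm1l in the lower. The Sacm1l call in CD24+CD172a+ cDC2 was lost without any 1 array of that group or of cDC1, and the Tmem158 call without replicate 2 of CD24-CD172a+ cDC2 or either cDC1 array. The closest neighbour, Fyco1 (0.416 kb), read 6.46 and 6.34 on the CD24+CD172a+ arrays, 6.40 and 6.49 on the CD24-CD172a+ arrays, and 6.30 and 6.42 on the cDC1 arrays, and was called in none of the comparisons. Cxcr6 (40.6 kb), Ccr1l1 (114 kb) and Ccr3 (156 kb) were likewise not called.

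**Figure D4:**
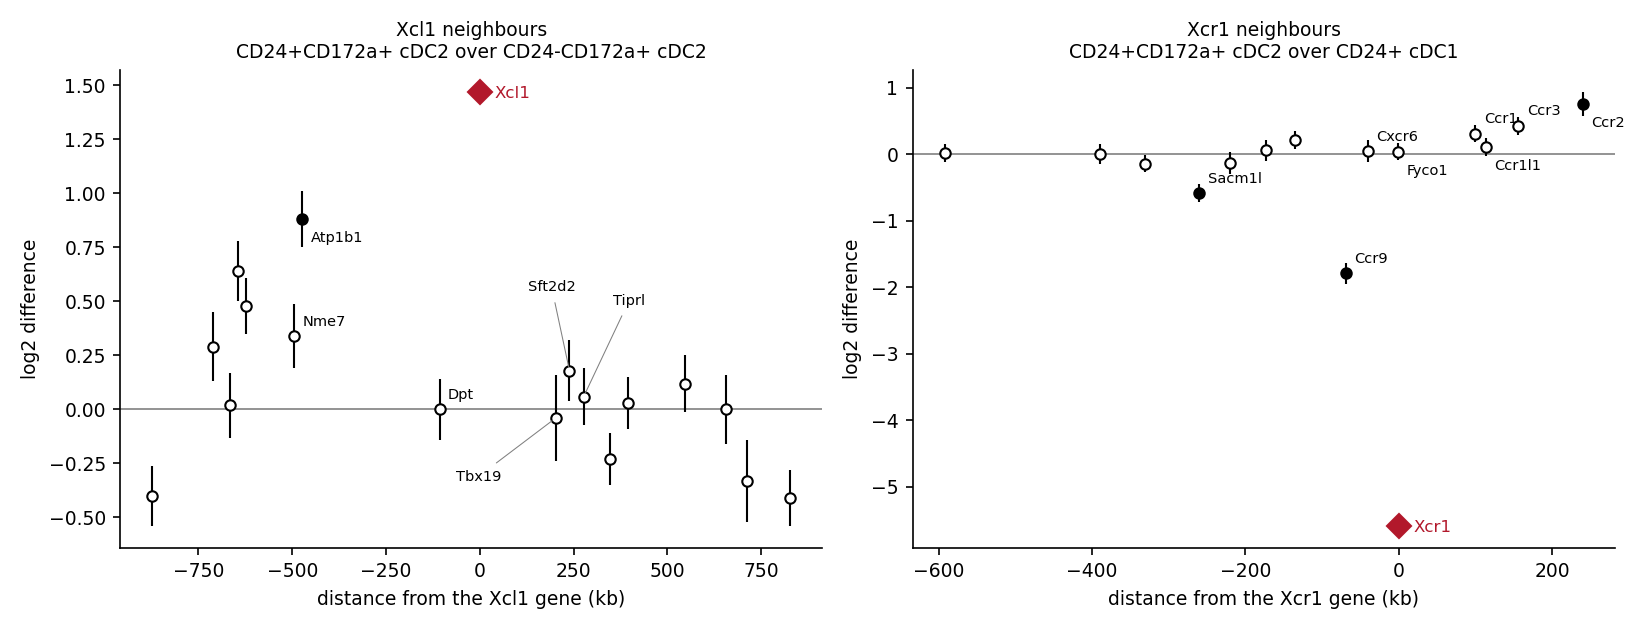
Log2 difference of measured neighbours against their distance from Xcl1 (left, CD24+CD172a+ over CD24-CD172a+ cDC2) and Xcr1 (right, CD24+CD172a+ cDC2 over cDC1), with SE bars. Filled points were called, open points were not, and red diamonds mark Xcl1 (1.47) and Xcr1 (-5.59), which were not tested. Atp1b1 is the called neighbour on the left, and Ccr9, Sacm1l and Ccr2 are those on the right.

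The genes whose pattern was most like each member were found by the root mean square difference of log2 values over the 6 arrays, after each gene was centred on its mean. They were picked for their pattern, so no test is given. The nearest to Xcl1 was Spib, an ETS factor gene of plasmacytoid dendritic cells and B cells, at 0.29, with 6.76 and 6.80 on the CD24+CD172a+ arrays, 6.07 and 5.82 on the CD24-CD172a+ arrays, and 4.49 and 4.83 on the cDC1 arrays. Next were Bcl3, an atypical IkappaB gene (0.30), the heparanase gene Hpse (0.35), the integrin beta3 gene Itgb3 (0.35), Cst7, which encodes the protease inhibitor cystatin F (0.36), Tcf4, the E protein gene of plasmacytoid dendritic cells (0.38), Dab2 (0.38) and Tnip3 (0.39). Spib and Tcf4 stand in the list of plasmacytoid markers, which also holds Ccr9, a gene highest in cDC1. Over the 6 arrays the Pearson correlation of all 8 with Xcl1 ran from 0.938 for Dab2 to 0.993 for Tcf4. A second, dimmer probe set of Dab2 differed by 0.17 between the cDC2 populations, where the brighter one differed by 1.74.

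The nearest to Xcr1 was the scavenger receptor gene Cd36, at 0.21, with 4.60 and 4.84 on the CD24+CD172a+ arrays, 5.76 and 5.76 on the CD24-CD172a+ arrays, and 10.34 and 10.38 on the cDC1 arrays. It was followed by P3h2 (0.42), the adhesion gene Cadm1 (0.43), P2ry14 (0.46), the dead-cell receptor gene Clec9a (0.52), the RNA sensor gene Tlr3 (0.58), Plpp1 (0.58) and the lipid hydrolase gene Naaa (0.59). Cd36, Cadm1, Clec9a, Tlr3 and Naaa stand in the list of cDC1 markers. Over the 6 arrays the correlations with Xcr1 ran from 0.973 for Naaa to 0.997 for Cadm1. Ranking by Pearson correlation instead shared 2 of 8 genes for Xcl1 and 0 of 8 for Xcr1, and leaving out 1 array shared 4 to 8 and 6 to 8 of them.

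**Figure D5:**
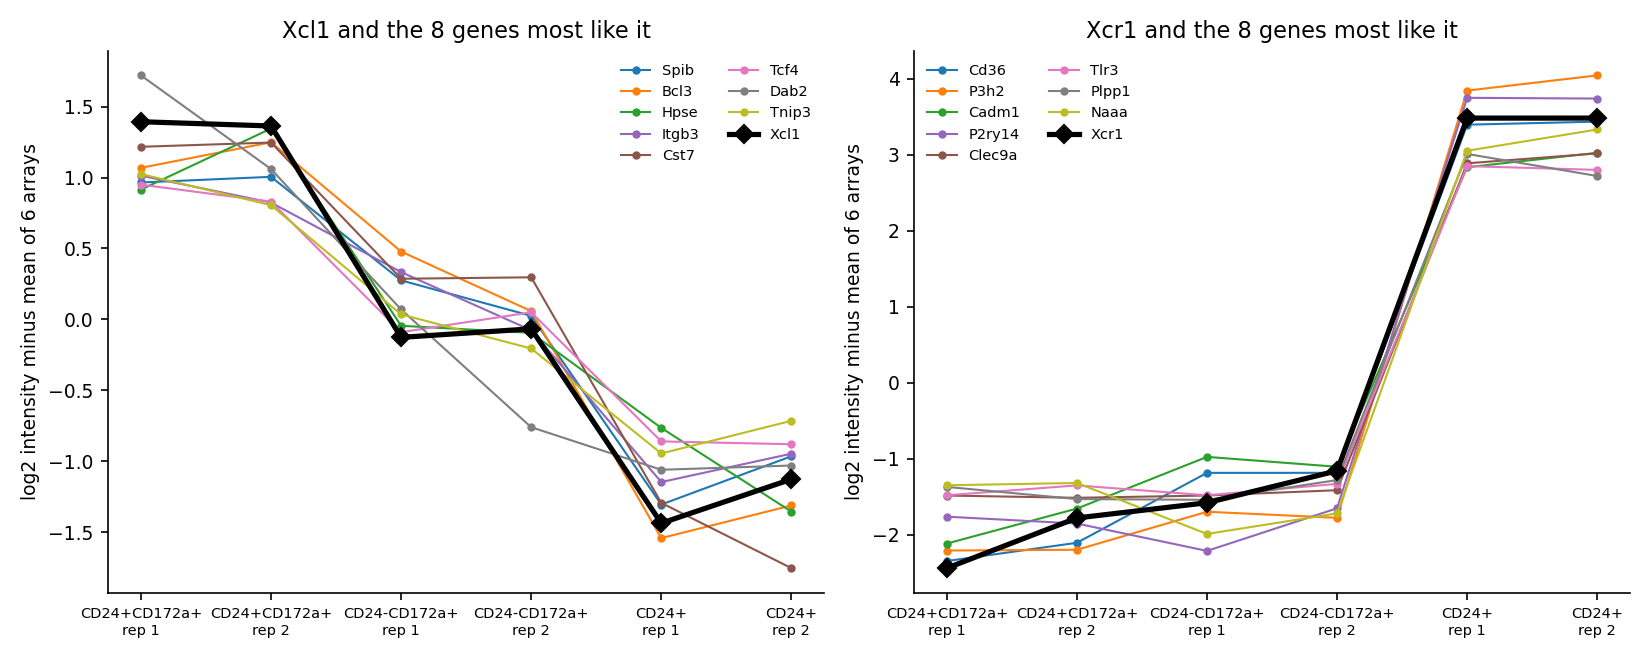
Log2 intensity of Xcl1 (left) and Xcr1 (right), in black, and of the 8 genes most like each, in colour, minus each gene's mean over the 6 arrays; lines join the arrays of one gene and carry no order among replicates. The Xcl1 group steps down over CD24+CD172a+ cDC2, CD24-CD172a+ cDC2 and cDC1, and the Xcr1 group is high on both cDC1 arrays alone.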

How the data were processed

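The authors used Affymetrix Expression Console and RMA, per the submitters' processing notes. Versions and genome build are not given in the sources used here. The deposited values are intensities on a linear scale by their range (array medians from 29.5 to 30.6, maxima from 11459 to 12095), so log2 was taken. Replicate arrays correlated at 0.992 to 0.993 across genes, which are not independent replicates. Scanner files, detection calls and scan dates were not used here, and precision is limited by the number of arrays.

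Of 28853 probe sets, the 21789 with 1 gene symbol were used; 21698 matched the GRCm38.p6 gene table, 1621 had several symbols and 5443 none. For the 999 genes with several probe sets, the one with the highest mean was kept, with no filter on dim genes. limma 3.58.1 in R 4.3.3 fitted the 6 arrays together (3 residual and 7.31 prior degrees of freedom), and the code was first tested on simulated data. The pair, the gene lists and the alternatives were chosen with earlier results of these data known.

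Genes were named by a rule: the pair, its co-secreted chemokines, the regulators and sort markers whatever their values, up to 5 called genes per family list, comparison and direction, near and called neighbours, up to 4 called markers per list, and the 8 genes most like each member. Genes with a gap at least that of Xcl1 or Xcr1 and marker genes beyond these were named after their values were seen. Alternatives were other normalisations, a filter on dim genes, mean probe sets, an intensity trend with robust variance, only the 2 groups compared, a block for the replicate number, and each array left out in turn. Replicate numbers come from the sample titles. Same-numbered arrays deviated together with correlations of 0.0838, 0.0837 and 0.0242. With 2 arrays per group, these cannot settle whether equal numbers mark a shared animal, pool or sort, which is not stated. Promoter sequences are from RefSeq. Plots used matplotlib 3.10.9 in Python 3.11.15.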

Additional observations from a re-analysis of the deposited data

How the results depend on the processing

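Under the alternatives with every array, no difference of Xcl1 or Xcr1 changed sign. Among the results recomputed there, 113 values stayed within 1.5 times the main count or within the replicate SD, and 9 moved further, 2 of them the lists of most similar genes given above. Between the cDC2 populations, 291 genes were called (161 higher and 130 lower in CD24+CD172a+ cDC2), against 437 without genes under the median, 464 with an intensity trend and robust variance and 187 with only the 2 groups compared, where 0 receptors and 0 signalling genes were called. The balance of higher and lower calls turned round after a second quantile normalisation (122 and 142) and cyclic loess (120 and 158). For CD24-CD172a+ cDC2 over cDC1 it was 1361 and 1776, against 1567 and 1451 after cyclic loess. The Xcl1 difference of 1.47 was 1.42 after a second quantile normalisation and 1.37 after cyclic loess. With the replicate number as a block, 411, 2918 and 3323 genes were called in the 3 comparisons, with 5, 11 and 10 ligands, 1, 6 and 9 receptors and 1, 14 and 17 signalling genes. Ccl5 and Ccdc181 then passed between the cDC2 populations (adjusted p = 0.033 and 0.0364), Bcl6 in CD24+CD172a+ cDC2 over cDC1 (0.0489) and Ccr2 in CD24-CD172a+ cDC2 over cDC1 (0.0212). Whether equal numbers mark a pairing is not stated.

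Leaving out 1 array at a time called 20 to 187 genes between the cDC2 populations, lowest without replicate 1 of CD24+CD172a+ cDC2, 1781 to 2769 for CD24+CD172a+ cDC2 over cDC1 and 1922 to 2839 for CD24-CD172a+ cDC2 over cDC1. In that order of comparisons, ligands ran 2 to 5, 8 to 11 and 9 to 10, receptors 0 to 1, 4 to 6 and 6 to 9, and signalling genes 0 to 0, 8 to 13 and 11 to 14. Xcl1 differences ran 1.44 to 1.5, 2.5 to 2.81 and 1.03 to 1.34, and those of Xcr1 -1.07 to -0.41, -5.92 to -5.26 and -5.06 to -4.64. Groups left with 1 array were assumed to vary like the others. The main limits are 2 arrays per group, unknown signal over background for dim genes such as Xcr1 in cDC2, and 1 probe set for each member.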
